A study of Mus musculus with 11 samples.

Results

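The genes described here encode the proteasome: the subunits of its 20S core, with the 3 catalytic subunits of the immunoproteasome, its 19S cap, and the PA28 activators. The list holds 38 genes and was chosen by name, with earlier results of these data known. Of these, 37 were measured among 22180 genes. Psma4, an alpha ring gene, was not analysed, because both of its probesets also name another gene. A gene is represented by the probeset (the group of array probes for 1 transcript) that names that gene alone, or by the brightest such probeset where a gene has more than 1.

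RNA came from splenic dendritic cells of C57BL/6 mice, sorted as positive for CD11c and MHC class II. The naive group (6 arrays, numbered 1 to 6) came from mice without tumour. The lymphoma-exposed group (5 arrays, numbered 1, 2, 3, 4 and 6) came from mice that had received Eµ-Myc cells, a B cell lymphoma driven by a Myc transgene under the immunoglobulin heavy chain enhancer, and whose splenic tumour load averaged 10 to 36% of lymphocytes. The labels give neither age nor sex, and no array here is labelled as lacking C/EBPβ, the transcription factor that the wider study is about. They leave unsaid how many mice stand behind each array, so p-values measure only the spread between these arrays. The comparison asks which transcripts of dendritic cells differ after exposure to lymphoma. Values are log2 expression, so a difference of 1 is 2-fold.

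The proteasome degrades proteins tagged with ubiquitin. Its core is a stack of rings in which alpha subunits form the gate and 3 of the beta subunits cut the peptide chain, while the 19S cap recognises ubiquitin, removes it, unfolds the protein with a ring of ATPases and feeds it into the core. Interferon gamma induces alternative catalytic subunits, which antigen-presenting cells also make without it, and which replace the standard ones in newly built cores and alter the peptides made for MHC class I. PA28 is another cap, which opens the core without ATP.

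The labelled cell type was checked first. Itgax, the gene of CD11c, was at 12.11 in naive and 11.98 in exposed cells, and the class II gene H2-Ab1 at 13.66 and 13.61. Both reflect the sort. Of the 6 measured markers of the sort and conventional dendritic cells, 5 were negative and 1 positive, and none passed (median difference -0.07). Their deviation from the naive mean was -0.14, -0.12 and -0.11 on exposed arrays 1, 2 and 3. It was 0.0048 and 0.01 on exposed arrays 4 and 6. The 6 measured type 1 dendritic cell markers had a median difference of 0.02, with 5 positive and none past the test. The T cell gene Cd3e (5.47 and 5.72) was near the mark for dim genes, 5.605, which is the 95th percentile of the olfactory receptor genes, while the B cell gene Cd79a was at 7.66 and 8.02. Of 6 measured B cell markers, 0 passed and 5 were positive, and their mean level was 6.95 to 7.32 on naive and 7.01 to 7.44 on exposed arrays. Exposed arrays 1, 2 and 3 deviated from the naive mean of these markers by 0.36, 0.09 and 0.28, and arrays 4 and 6 each by -0.06. None of 5 plasmacytoid dendritic cell and 5 neutrophil markers passed, with 2 and 3 positive. Arrays numbered 1 to 3 differed from arrays numbered 4 to 6, for a reason the labels do not give. With the group as a term in the limma fit, 2.64% of all genes were higher and 0.658% lower in arrays 4 to 6 (adjusted p under 0.05). Differences within each number set are therefore shown too. The naive group has 3 arrays in each set, and the exposed group has 3 in the first and 2 in the second.

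No proteasome gene passed the test between exposed and naive cells, though nearly all were slightly higher in exposed cells. Of 37 members, 0 rose and 0 fell (limma with Benjamini-Hochberg adjustment over all genes, adjusted p under 0.05), where 1.42% of all genes changed, 0.879% rising and 0.546% falling. The lowest adjusted p was 0.133, for Psmd7. The difference was positive for 36 members, against 53.5% of all genes, and the median over the members was 0.10 (1.07-fold), against 0.0082 over all genes. At an unadjusted p under 0.05, 11 members were higher (29.7%) and 0 were lower, where 7.17% and 5.05% of all genes were. With 1 array left out, 5 to 14 members were higher at that level. Their number was 5 without exposed array 2 or 3, where 5.66% and 6.79% of all genes were higher. It was 7 without naive array 1 and 14 without exposed array 4, against 6.31% and 7.55% of all genes. Within arrays 1 to 3 it was 9 and within arrays 4 to 6 it was 1, against 6.63% and 4.44% of all genes. In whole sorted populations, fewer cells of a type and less RNA per cell cannot be told apart.

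The mean level over all members was 9.31 ± 0.05 (SD, n = 6; 9.23 to 9.37) on naive and 9.41 ± 0.06 (SD, n = 5; 9.32 to 9.47) on exposed arrays, with 4 of 5 exposed arrays above all naive ones. For single members the median SD was 0.09 within the naive group, and the median standard error of a difference was 0.06. The 95% limits of the difference lay above 0 for 11 members and below 0 for none. Among the 36 members brighter than the dim mark, the highest upper limit was 0.38, or 1.31-fold, for Psmb5. Naive and exposed arrays overlapped for each of the 37 members, where 2.29% of all genes had groups that did not overlap. For 5 members (Psma6, Psmc3, Psmd6, Psmd7 and Psme2), 4 of 5 exposed values exceeded the highest naive one, and at least 4 did so in 4.5% of all genes.

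**Figure D1:**
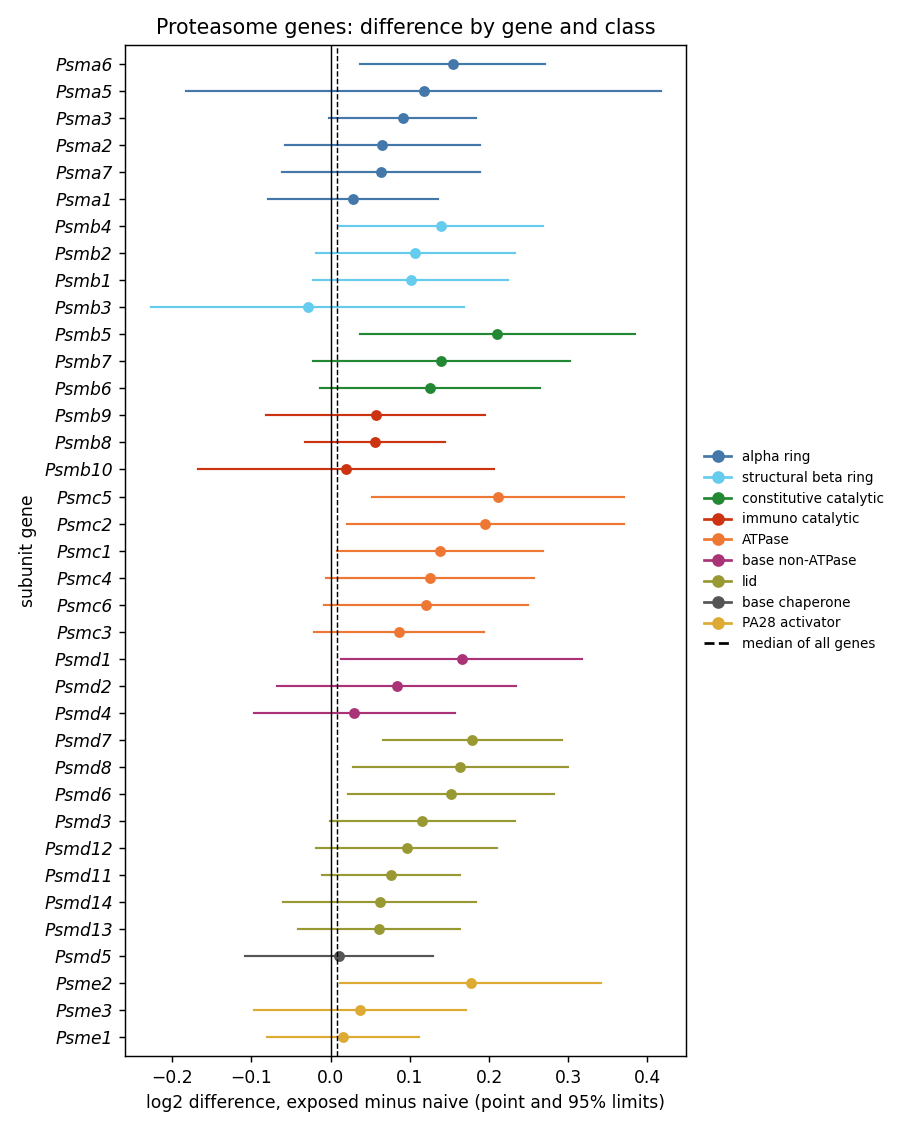
Log2 difference, exposed minus naive, for the 37 measured proteasome genes, grouped and coloured by class, with 95% limits from limma; the dashed line is the median of all 22180 genes (0.0082). The points lie to the right of 0 except for Psmb3 (-0.03), and the constitutive catalytic and ATPase genes lie farther right than the 3 immunosubunit genes, without any gene passing the adjusted test.

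The members were also read relative to the level of the whole array, since the sign of a small difference depends on scaling. After median centring 34 were positive, after quantile normalisation 36, and after shifting each array to a common 75th percentile 30. In the last case Psma1, Psmb3, Psmb10, Psmd4, Psmd5, Psme1 and Psme3 were below 0. The median of all genes was then -0.03 and that of the members 0.06. As deposited, 36 of 37 members lay above the median of all genes, with Psmb3 below it. Median centring and the 75th percentile shift move all genes of an array alike, so they cannot alter this count. Quantile normalisation could alter it, and there too 36 of 37 lay above, with Psmb3 below. At an unadjusted p under 0.05, 7, 10 and 3 members were higher after centring, quantile normalisation and the 75th percentile shift. Of all genes, 5.44%, 6.28% and 4.44% were. Of the genes that passed, 61.7% were higher as deposited and 43.0% after the 75th percentile shift. The 2492 genes whose mean level lay between the quartiles of the members' own means (8.78 to 10.08) had a median difference of 0.0087. Of these, 53.1% were positive, 10.2% were higher at an unadjusted p under 0.05 and 1.48% rose at the adjusted threshold.

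The catalytic subunits are the part of the core that exists in a standard and an immune form. Psmb5, Psmb6 and Psmb7 carry the chymotrypsin-like, caspase-like and trypsin-like sites of the standard core, and Psmb8, Psmb9 and Psmb10 take their places in the immunoproteasome. Psmb8 and Psmb9 lie in the MHC class II region, next to the transporter genes Tap1 and Tap2. The promoters of these genes were read for the letters of the core of the antioxidant response element, TGACNNNGC, bound by NRF1 (Nfe2l1), a factor known to raise proteasome genes together when the proteasome is impaired. The 2 pairs for which the RefSeq promoter table (GRCm38.p6) holds both partners are shown from 250 bases before to 50 bases after the annotated start, 5′ to 3′ on the gene's own strand, with matches on either strand in capitals. They are Psmb5 (chr14:54617946-54618245, minus strand) with Psmb8 (chr17:34197945-34198244, plus strand), and Psmb6 (chr11:70525107-70525406, plus strand) with Psmb9 (chr17:34187281-34187580, minus strand).
Psmb5: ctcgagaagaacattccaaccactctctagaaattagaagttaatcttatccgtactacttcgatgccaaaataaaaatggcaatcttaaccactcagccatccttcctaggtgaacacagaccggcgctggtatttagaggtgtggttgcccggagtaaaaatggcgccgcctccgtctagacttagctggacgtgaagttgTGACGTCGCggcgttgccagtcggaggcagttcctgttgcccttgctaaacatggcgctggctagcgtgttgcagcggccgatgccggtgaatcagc
Psmb8: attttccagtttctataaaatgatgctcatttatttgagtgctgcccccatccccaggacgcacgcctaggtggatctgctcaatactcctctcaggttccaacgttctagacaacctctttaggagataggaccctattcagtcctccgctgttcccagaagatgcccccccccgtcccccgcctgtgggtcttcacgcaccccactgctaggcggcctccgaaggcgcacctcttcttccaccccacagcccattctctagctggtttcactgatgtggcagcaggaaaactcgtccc
Psmb6: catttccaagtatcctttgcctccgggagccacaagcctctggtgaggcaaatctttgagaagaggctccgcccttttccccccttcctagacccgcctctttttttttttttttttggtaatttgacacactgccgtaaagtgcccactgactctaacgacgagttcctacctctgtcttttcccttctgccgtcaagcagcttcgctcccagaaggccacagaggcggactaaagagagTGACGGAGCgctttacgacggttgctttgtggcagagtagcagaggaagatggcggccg
Psmb9: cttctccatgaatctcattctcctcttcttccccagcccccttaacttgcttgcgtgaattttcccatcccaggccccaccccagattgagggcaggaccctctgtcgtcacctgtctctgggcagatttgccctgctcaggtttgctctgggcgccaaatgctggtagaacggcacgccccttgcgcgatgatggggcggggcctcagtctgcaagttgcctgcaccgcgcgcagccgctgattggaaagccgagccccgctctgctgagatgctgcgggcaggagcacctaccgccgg

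The standard subunits of both pairs hold a match to TGACNNNGC, beginning 47 bases before the start in Psmb5 and 9 bases before it in Psmb6. These letters do not occur in the Psmb8 and Psmb9 windows. Over all members, 4 of the 32 genes found in the promoter table held such a match (Psmb5, Psmb6, Psmc6 and Psmd12). That is 11.4% of 35 promoters, near the 12.4% of all 32851. The core of the interferon-stimulated response element (GAAA, any 2 bases, GAAA) was in Psmb3, Psmd4 and Psme1, 8.57% against 3.44%. A CCAAT box with its flank, GCCAAT, was in 9 genes (Psma1, Psma3, Psma6, Psma7, Psmb3, Psmc2, Psmd14, Psmd4 and Psme3), 25.7% against 14.7%. Both strands were searched; these are matches of letters, not measured binding.

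Among the standard catalytic subunits the median difference was 0.14, and each of the 3 was higher in exposed cells without passing. Psmb5 ranged from 8.56 to 9.05 (median 8.82) in naive cells and was at 9.04, 9.15, 8.92, 8.90 and 9.06 on exposed arrays 1, 2, 3, 4 and 6. Only naive array 4, at 9.05, reached the exposed range. The difference was 0.21 ± 0.08 (SE; 1.16-fold, adjusted p = 0.283), with 0.36 within arrays 1 to 3 and 0.05 within arrays 4 to 6. Psmb6 ranged from 9.34 to 9.61 (median 9.60) in naive cells and was at 9.79, 9.76, 9.72, 9.53 and 9.61 in exposed cells, so that arrays 1 to 3 of the exposed group lay above all naive arrays and arrays 4 and 6 did not. Its difference was 0.13 ± 0.06 (adjusted p = 0.476). Psmb7 ranged from 10.27 to 10.70 (median 10.54) in naive cells, and was at 10.62, 10.63, 10.56, 10.72 and 10.76 in exposed cells, which overlap. Its difference was 0.14 ± 0.08 (adjusted p = 0.505), and it was one of 3 members that differed between the number sets themselves.

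The 3 immunosubunits had a median difference of 0.06, and none passed. Psmb8, the immune counterpart of Psmb5, ranged from 11.10 to 11.26 (median 11.18) in naive cells and was at 11.22, 11.29, 11.19, 11.20 and 11.29 in exposed cells. The groups overlap, and the difference was 0.06 ± 0.04 (95% limits -0.03 to 0.14, adjusted p = 0.667). Psmb9, the counterpart of Psmb6, ranged from 10.43 to 10.72 (median 10.52) in naive cells and was at 10.68, 10.72, 10.56, 10.44 and 10.57 in exposed cells, with no exposed array outside the naive range. Its difference was 0.06 ± 0.06 (95% limits -0.08 to 0.20, adjusted p = 0.804). Psmb10, the counterpart of Psmb7, ranged from 10.44 to 10.68 (median 10.54) in naive cells and was at 10.70, 10.80, 10.50, 10.24 and 10.61 in exposed cells, where array 2 was the highest and array 4 the lowest of all 11. Its difference was 0.02 ± 0.09 (95% limits -0.17 to 0.21, adjusted p = 0.962), with 0.12 within arrays 1 to 3 and -0.13 within arrays 4 to 6.

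Whether immune and standard partners moved apart was tested on their difference within each array, which a shift of the whole array cannot alter. The level of this difference depends on the probes, and only its change between groups can be read. Psmb8 minus Psmb5 had a mean of 2.38 ± 0.13 on the naive arrays (SD, n = 6) and of 2.23 ± 0.07 on the exposed arrays (SD, n = 5). This is a change of -0.15 ± 0.06 (SE; exact permutation p = 0.0433, two-sided over 462 splits; 0.130 adjusted over the 3 pairs). Taken by number set, the first gave -0.29 and the second -0.0068; whether the sets differ in this was not tested. With each array left out in turn, this pair passed only without naive array 4, whose value of 2.17 was the lowest of its group. The change was then -0.20 (exact permutation p = 0.0238 adjusted over the 3 pairs). Leaving out the lowest naive value must enlarge a negative change, so this fit was not read as support. Psmb9 minus Psmb6 changed by -0.07 ± 0.06 (exact permutation p = 0.286; 0.377 adjusted) and Psmb10 minus Psmb7 by -0.12 ± 0.13 (exact permutation p = 0.377; 0.377 adjusted). After quantile normalisation, which is not a plain shift, the changes of the 3 pairs were -0.12, -0.07 and -0.11 (exact permutation p = 0.234, 0.435 and 0.435 adjusted over the 3 pairs). No pair passed with all arrays, and the smallest p that this design can give is 0.00216.

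**Figure D2:**
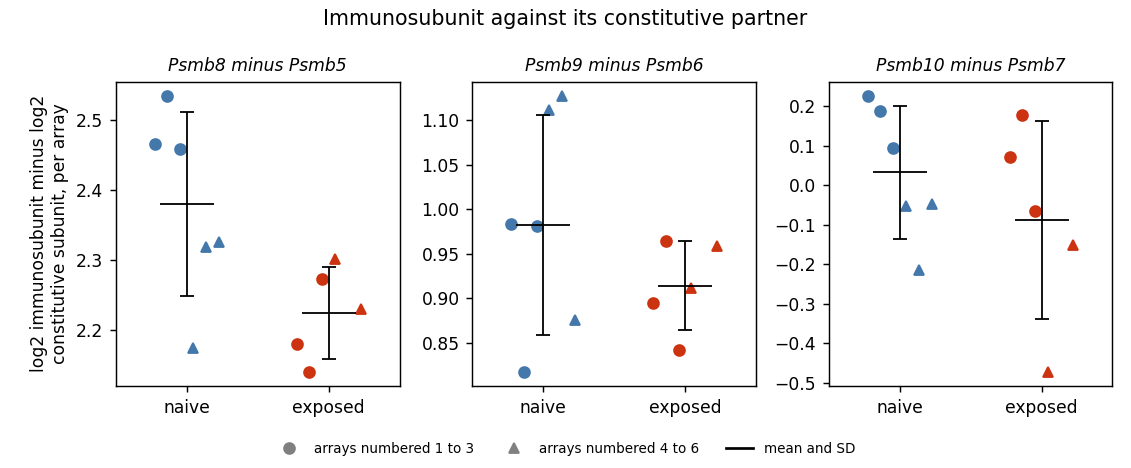
Log2 value of each immunosubunit minus that of the standard subunit it replaces, per array, with group mean and SD; circles are arrays numbered 1 to 3 and triangles arrays numbered 4 to 6, and each panel has its own axis. For Psmb8 minus Psmb5 the naive arrays 1 to 3 (2.47, 2.53 and 2.46) lie above all exposed arrays, while naive arrays 4 to 6 (2.17, 2.32 and 2.33) lie among or close to them.

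The rest of the 20S core is structural. In the alpha ring the median difference of 6 measured genes was 0.08, and each was positive. Psma6 ranged from 8.98 to 9.16 (median 9.07) in naive cells and was at 9.21, 9.26, 9.33, 9.11 and 9.21 in exposed cells, so that only exposed array 4 lay within the naive range. Its difference was 0.15 ± 0.05 (1.11-fold, adjusted p = 0.228). Psma1, Psma2, Psma3 and Psma7 differed by 0.03 to 0.09. Psma5 was dim, at 5.05 and 5.16, below the mark of 5.605, and its other probeset was as dim (4.99), so its difference of 0.12 ± 0.14 rests on signal near background. In the beta ring, Psmb4 (0.14 ± 0.06, adjusted p = 0.354), Psmb2 (0.11) and Psmb1 (0.10) were positive. Psmb3 was the only member with a negative difference, -0.03 ± 0.09; its values ran from 5.97 to 6.44 in naive and from 5.94 to 6.26 in exposed cells, which is close to the dim mark.

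The ATPase ring of the 19S base, which unfolds substrates, had a median difference of 0.13, and all 6 genes were positive. Psmc5 (Rpt6) ranged from 8.10 to 8.43 (median 8.24) in naive cells and was at 8.37, 8.53, 8.60, 8.33 and 8.47 in exposed cells; exposed arrays 2, 3 and 6 lay above all naive arrays. Its difference, 0.21 ± 0.07 (1.16-fold, adjusted p = 0.227), came to 0.27 within the first number set and 0.13 within the second. Psmc2 (Rpt1) ranged from 9.27 to 9.57 (median 9.49) and was at 9.58, 9.90, 9.80, 9.44 and 9.57 in exposed cells, with exposed arrays 2 and 3 the highest. It differed by 0.20 ± 0.08 (adjusted p = 0.333), all of it in arrays 1 to 3 (0.34, against -0.00066 in arrays 4 to 6). A dimmer probeset of Psmc2 differed by 0.29 ± 0.09 (adjusted p = 0.161 when all probesets were tested). Psmc1, Psmc4 and Psmc6 differed by 0.12 to 0.14, nearly alike in both number sets, and Psmc3 by 0.09.

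The rest of the base holds scaffold subunits and ubiquitin receptors, and the lid removes ubiquitin from the substrate. Of the base, the scaffold gene Psmd1 (Rpn2) differed by 0.17 ± 0.07 (adjusted p = 0.350; a further probeset, shared with another gene, was not used), the scaffold gene Psmd2 (Rpn1) by 0.08 and the ubiquitin receptor Psmd4 (Rpn10) by 0.03. Psmd7 (Rpn8), the partner of the deubiquitinase in the lid, had the lowest p of the members. It ranged from 9.72 to 9.86 (median 9.78) in naive cells and was at 9.95, 9.94, 9.96, 9.83 and 10.12 in exposed cells, so that only exposed array 4 lay within the naive range. The difference was 0.18 ± 0.05 (1.13-fold; unadjusted p = 0.00453, adjusted p = 0.133 by limma), and it was of one size in both number sets, 0.18 and 0.19. The largest unadjusted p among the genes that passed was 0.000710.

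Psmd14 (Rpn11), the deubiquitinase that Psmd7 binds, differed by 0.06 ± 0.06 (adjusted p = 0.747), with naive arrays from 8.34 to 8.62 and exposed arrays from 8.51 to 8.62. Psmd8 (Rpn12) ranged from 10.53 to 10.75 (median 10.63) in naive cells and was at 10.82, 10.93, 10.89, 10.63 and 10.73 in exposed cells, where arrays 1 to 3 were above all naive arrays. It differed by 0.16 ± 0.06 (adjusted p = 0.283). Psmd6 (Rpn7) differed by 0.15 ± 0.06 (adjusted p = 0.306), with 4 exposed arrays above all naive ones while exposed array 1, at 8.25, lay within the naive range. The other lid genes Psmd3, Psmd11, Psmd12 and Psmd13 differed by 0.06 to 0.12, and the lid's median was 0.11. All 8 lid genes were positive in both number sets. Psmd5, an assembly chaperone of the base and not a part of the finished particle, stood at 9.33 ± 0.04 (SD, n = 6) and 9.34 ± 0.12 (SD, n = 5), a difference of 0.01.

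**Figure D3:**
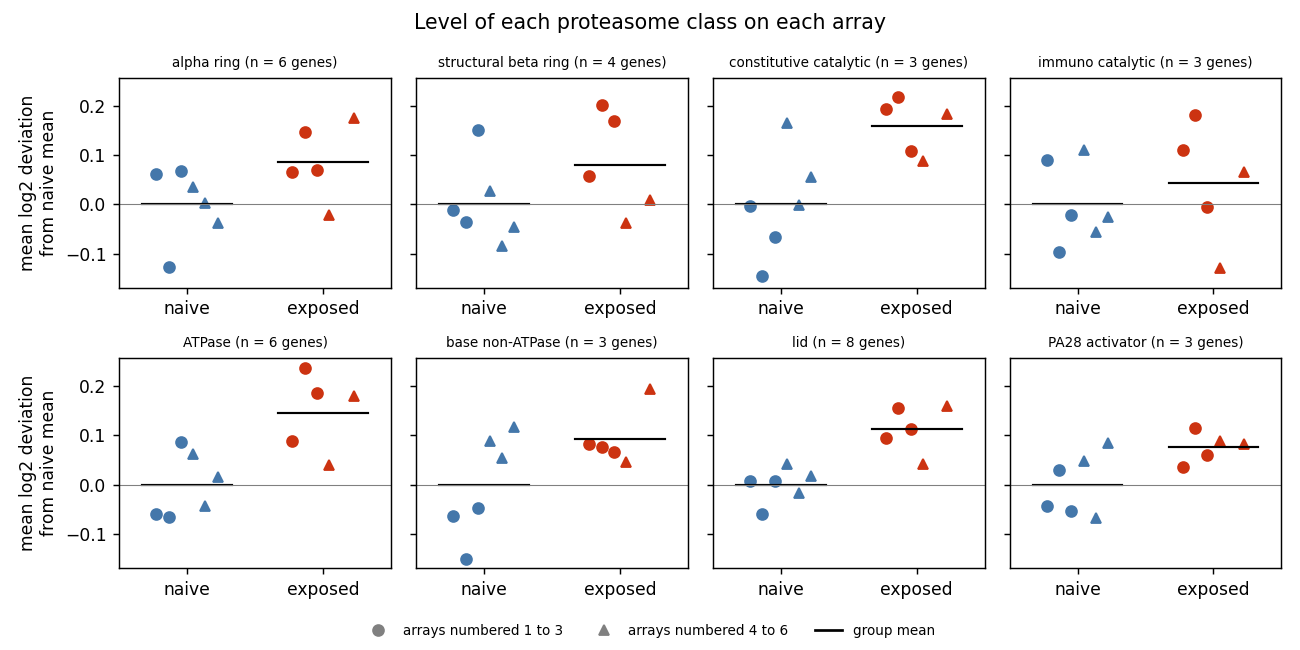
Mean log2 deviation of each class from its genes' naive means, 1 point per array, with group means as bars; circles are arrays numbered 1 to 3 and triangles arrays numbered 4 to 6. Exposed array 2 is the highest of all arrays for the immunosubunits (0.18), the ATPases (0.24) and PA28 (0.11). It is also the highest for the structural beta ring (0.20) and the constitutive catalytic genes (0.22). In the alpha ring, base non-ATPase and lid panels exposed array 6 is the highest. Exposed array 4 is the lowest exposed array in each panel except PA28, and naive and exposed arrays overlap in each class.

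PA28 alpha and beta, encoded by Psme1 and Psme2, form the activator ring that interferon gamma induces, and the related Psme3 encodes the nuclear PA28 gamma. Psme1 ranged from 11.30 to 11.49 (median 11.42) in naive cells and was at 11.43, 11.52, 11.40, 11.42 and 11.38 in exposed cells; the groups overlap nearly completely and differed by 0.02 ± 0.04 (95% limits -0.08 to 0.11, adjusted p = 0.935). Psme2 ranged from 7.52 to 7.92 (median 7.83) and was at 7.96, 8.04, 7.97, 7.999 and 7.81 in exposed cells. All exposed arrays but array 6 lay above the naive ones, and the difference was 0.18 ± 0.08 (1.13-fold, adjusted p = 0.360). Another probeset of Psme2 also names other genes and was not used, so signal shared with related copies cannot be separated. Psme3 differed by 0.04 ± 0.06 (adjusted p = 0.880), with exposed array 6, at 9.05, above and exposed array 1, at 8.71, below all naive arrays.

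The arrays differed in how many members they carried above the naive means. Of 37 members, exposed arrays 1, 2, 3, 4 and 6 had 31, 36, 32, 24 and 35 above their naive mean, and the mean deviation over the members was 0.08, 0.17, 0.10, 0.02 and 0.14. Naive array 4, with 35 members above and a mean deviation of 0.06, was the highest naive array, and naive array 2, with 7 above and -0.08, was the lowest. Markers of proliferation were higher in the same exposed group: all 6 measured were positive and 4 rose (Plk1, Cdc20, Bub1 and Ccna2). Their mean level was 9.25 to 9.55 on naive and 9.62 to 10.05 on exposed arrays, without overlap. On exposed arrays 1, 2, 3, 4 and 6 they deviated from their naive mean by 0.22, 0.55, 0.39, 0.40 and 0.65. Red pulp macrophage markers, of which 0 of 8 passed and 7 were positive, had mean levels of 8.43 to 9.59 and 8.9997 to 10.89. Their deviations on the exposed arrays, in the same order, were 1.86, 0.89, 0.20, -0.02 and -0.04. The T and NK cell markers, 4 of 5 positive with Ncr1 past the test, ran from 4.99 to 5.11 and from 5.12 to 5.39, with 1 of the 5 above the dim mark. Of 6 type 2 dendritic cell markers, 4 were negative and 2 positive, and Cd209a (-1.02) and Clec4a4 (-0.43) fell. The part of any of these cells in the proteasome values was not tested.

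Differences were larger in arrays 1 to 3 than in arrays 4 to 6 for 28 of the 37 members. The median was 0.13 in the first set, with 34 positive, and 0.06 in the second, with 30 positive. Over all genes the medians were 0.012 and 0.0041, with 53.8% and 51.4% positive. Of the members, 28 were positive in both sets and Psmb3 was negative in both. The immunosubunits had a median of 0.12 in arrays 1 to 3 and of -0.04 in arrays 4 to 6, the standard catalytic subunits 0.23 and 0.06, and the ATPases 0.14 and 0.13. The difference between the sets was tested in limma as an interaction with group, which passed for 0 of the 22180 genes (943 at an unadjusted p under 0.05). It was under 0.05 unadjusted for 3 members, Psmb5 (-0.30), Psmc2 (-0.34) and Psmd4 (-0.25), each smaller in arrays 4 to 6 (adjusted p = 0.992 for each). Blocking on the number set, 365 genes rose and 252 fell, 1.65% and 1.14% of all genes, and 0 members were among them. The lowest adjusted p of a member was then 0.0972, again for Psmd7 (0.18), followed by Psmb7 (0.16, adjusted p = 0.0982).

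**Figure D4:**
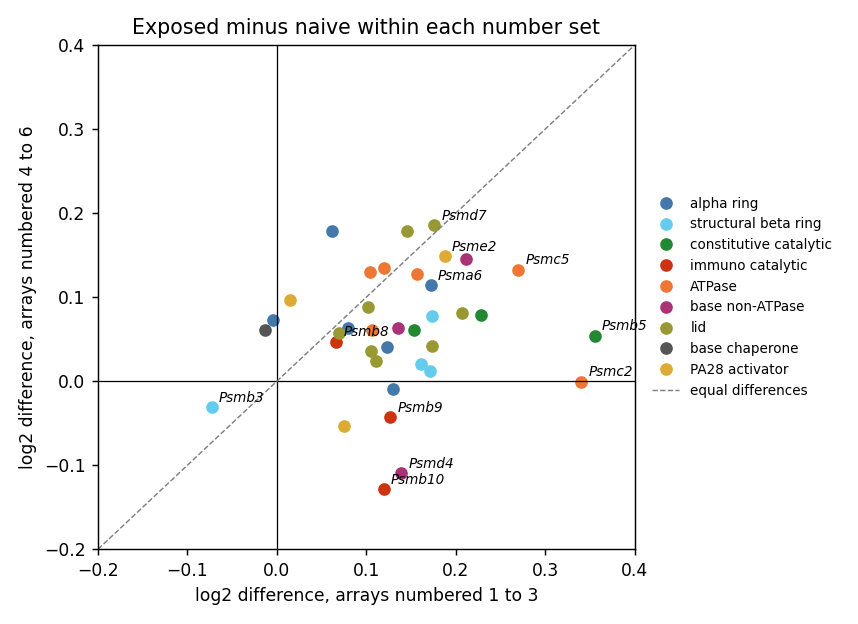
Log2 difference, exposed minus naive, of each of the 37 genes within arrays numbered 1 to 3 (horizontal axis) and within arrays numbered 4 to 6 (vertical axis), coloured by class, with the dashed line at equal differences. Most points (28 of 37) lie below the line; Psmd7 lies beside it (0.18 and 0.19), and Psmb5 (0.36 and 0.05) and Psmc2 far to its right.

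Between the number sets themselves, with the group as a term in the limma fit, 3 members passed. Psmb7 was higher in arrays 4 to 6 by 0.22 ± 0.05 (adjusted p = 0.0283) and Psmd2 by 0.20 ± 0.04 (adjusted p = 0.0284), and Psmb3 was lower by 0.25 ± 0.06 (-0.25, adjusted p = 0.0440). Over all genes 2.64% were higher and 0.658% lower in arrays 4 to 6. Over the members, 17 of 37 were higher in arrays 4 to 6 and the median was -0.0042, against -0.011 over all genes.

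Other genes of the pathway were examined from lists of known function. Of 16 measured extra subunits, assembly factors and activators, 0 passed and 15 were positive, with a median of 0.05. The largest difference was that of Uchl5, a deubiquitinase of the 19S cap, which went from 9.40 to 9.58 (0.18 ± 0.07, adjusted p = 0.278). Adrm1 and Paaf1 were not analysed here. Of 8 measured transcriptional regulators of proteasome and presentation genes, 0 passed and 4 were positive. The interferon signalling factor Stat2 had the largest difference, from 10.22 to 10.03 (-0.19 ± 0.11, adjusted p = 0.506). NRF1, encoded by Nfe2l1, went from 8.50 to 8.59 (0.09 ± 0.06, adjusted p = 0.664).

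Class I presentation genes, which act downstream of the proteasome, had 0 of 10 past the test and 6 positive, with a median of 0.02. Tapbpl, a peptide editor, had the largest difference, 0.11 ± 0.08 (adjusted p = 0.639), and the peptide transporter genes Tap1 and Tap2 gave 0.04 and -0.07. H2-D1 was not analysed here. Of 7 measured genes of ubiquitin delivery, 0 passed and 4 were positive. The largest difference was -0.13 ± 0.08 (adjusted p = 0.596) for Ufd1, a cofactor of the segregase VCP.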

How the data were processed

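Total RNA of the sorted cells was biotin-labelled with the GeneChip WT PLUS kit (Affymetrix) and read on arrays of 1 colour, per the labels' protocols. The deposited log2 values were made by the authors with RMA (background correction, normalisation between arrays, probe summary), per the submitters' processing notes; version and probe definition are not given in the sources used here. Of 41801 probesets, 7329 hold no value. The remaining 34472 were named with the platform's probe table: 23521 name 1 gene, 1814 several and 9137 none. No dim gene was removed. The number of arrays limits the precision.

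Differences are exposed minus naive from limma 3.58.1 (lmFit, eBayes with trend) in R 4.3.3, over all 22180 genes at an adjusted p under 0.05; SE is the moderated standard error. For the subunit pairs, SE is that of the difference of the group means. Promoter sequences are RefSeq's; 1 further motif that was searched is not reported here. The members and lists, the marker lists included, were chosen with earlier results of these data known, and all 38 members, and in each of the 4 other pathway lists the genes that passed or the one with the largest difference, were to be named; Itgax, H2-Ab1, Cd79a and Cd3e were checks. Marker lists were given by their counts, with the genes that passed. Nfe2l1, Tap1 and Tap2 fall outside this rule and were named after their values were seen. Alternatives were limma's prior, array weights, scaling, a filter on dim genes, probeset choice, replicate and number set blocks, and each array left out. The comparison with genes of like level, the one between number sets, the quantile values of the pairs and the count above the median of all genes were chosen after seeing the data. On simulated data for this comparison (22180 genes), limma recovered 100% of genes changed by 1 and 81% of those changed by 0.5 on the log2 scale, and 11 of its 192 calls were false. Replicate numbers were not used to pair arrays: the correlation of deviations of same-numbered arrays lay between 0.088 and 0.231, and the last exposed array is 6 in its title and 5 in another field.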

Additional observations from a re-analysis of the deposited data

Results flagged for a closer look

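In 80 groups of values (37 genes and 3 pairs, naive and exposed), 6 held 1 array that stood far from its neighbours by Dixon's test, where chance gives about 1 in 20 groups. Among naive arrays, Psma3 was at 11.02 on array 6 (next value 11.12), Psmb6 at 9.34 on array 5 (next 9.58), Psmc4 at 9.82 on array 5 (next 10.02) and Psmc6 at 9.49 on array 2 (next 9.71), each the lowest. Among exposed arrays, Psmc6 was at 9.96 (next 9.82) and Psmd1 at 9.70 (next 9.53), both the highest and both on array 6.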

How the results depend on the processing

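The count of 0 changed members held in all 24 alternative fits. Of 887 alternative values of single members, none passed; the lowest adjusted p was 0.0769, for Psmd7 without exposed array 4. With 1 array left out, 34 to 37 members were positive and the median member difference was 0.08 to 0.12. The count of all changed genes moved from 316 to 617 with the number set as a block, 11 in arrays 1 to 3 and 5 in arrays 4 to 6. With the replicate block by title number it was 341, a block that leaves naive array 5 out of the difference, and by the characteristics' number, which leaves out naive array 6, it was 182; the members changed stayed at 0 and the median member difference was 0.09 and 0.11. With 1 array left out the count ran from 104 to 395, and it moved by over 1.5 times without naive array 1 (165), 2 (177), 3 (170), 5 (155) or 6 (155) or exposed array 2 (104) or 3 (205). The change of Psmb8 minus Psmb5 ran from -0.20 to -0.12 with 1 array left out and passed only without naive array 4 (-0.20); that of Psmb9 minus Psmb6 from -0.10 to -0.04 and that of Psmb10 minus Psmb7 from -0.19 to -0.02, none passing. Changes near 0.1, the size seen over the members, were not simulated, so the share of them that this design would find is not known.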
